A study of Homo sapiens with 6 samples.

Results

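The genes described here mark or serve the germinal centre B cell, and are LRMP, MYBL1, DENND3, KLHL6, MME, LMO2, SERPINA9, STAP1, ITPKB and NEIL1. They were chosen by name, and all 10 were found among the 34675 genes of the deposited comparison. The samples were U2932 cells, an established line from a human diffuse large B cell lymphoma that is usually classed as activated B cell-like. Of the 6 samples, 3 were infected with a short hairpin RNA against PRDM11, a PR domain protein, and 3 with a scrambled hairpin. All were selected with puromycin for 3 days, and each group rests on a single hairpin construct. The deposited values compare conditions named A and B, and nothing in the header or the labels ties either to the knockdown. Every difference is therefore given as condition A over condition B, with no treatment assigned.

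Germinal centres are the sites in lymphoid follicles where activated B cells divide, mutate their immunoglobulin genes and are selected. Cells of this stage carry a characteristic set of transcripts, and lymphomas that keep the set are called germinal centre B cell-like. MME (CD10), SERPINA9, ITPKB and MYBL1 belong to gene panels that separate this class from the activated B cell-like class. The genes do unlike jobs, from transcription control and calcium signalling to protein degradation, membrane traffic, proteolysis and DNA repair.

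Promoter windows of 250 bases before to 50 bases after the start were taken from RefSeq (GRCh38.p14) for 7 of the 10 genes, 14 windows in all, and not for MYBL1, DENND3 and LMO2. They were searched on both strands for 6 motifs. The windows shown belong to SERPINA9 and KLHL6, the members with the largest positive log2 ratios, one with a motif and one without. Capitals mark the octamer, the letters bound by POU factors of B cells. The SERPINA9 window is chr14:94476148-94476447 and the KLHL6 window is chr3:183555657-183555956, both on the minus strand.
SERPINA9: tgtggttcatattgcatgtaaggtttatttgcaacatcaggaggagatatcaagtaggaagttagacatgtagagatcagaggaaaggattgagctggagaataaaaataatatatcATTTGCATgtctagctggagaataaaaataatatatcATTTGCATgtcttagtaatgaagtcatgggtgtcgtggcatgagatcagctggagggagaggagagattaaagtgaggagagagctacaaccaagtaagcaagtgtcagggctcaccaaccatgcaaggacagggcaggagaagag
KLHL6: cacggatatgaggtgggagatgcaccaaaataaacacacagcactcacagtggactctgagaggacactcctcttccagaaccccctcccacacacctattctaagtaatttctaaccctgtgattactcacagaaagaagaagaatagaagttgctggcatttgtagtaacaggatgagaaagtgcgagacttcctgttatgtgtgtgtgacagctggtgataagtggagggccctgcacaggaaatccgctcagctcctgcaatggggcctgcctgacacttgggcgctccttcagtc
The octamer ATGCAAAT, seen here as its reverse complement, begins at positions -133 and -96 relative to the SERPINA9 start. Its copies lie within a perfect tandem repeat whose unit is 37 bases. At least 1 octamer was present in 1.77% of 35116 promoter windows, and 2 or more in 14 windows (0.0399%). The E-box CAGGTG was in 1 of 3 windows of LRMP and 1 of 3 of NEIL1, in 2 overlapping windows of MME and at 2 positions in that of STAP1, against 20.6% of all windows. AP-1 letters (TGANTCA), BCL6 letters (TTCCTNGAA), an ETS and IRF composite and a MEF2 element matched in no member's window, against 7.71%, 1.56%, 2.82% and 1.32% of all windows. ITPKB, like KLHL6, held none of the 6.

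The genes split in direction. KLHL6 was higher in condition A, and LRMP, MYBL1 and DENND3 were lower, at an adjusted p under 0.05 by DESeq, from the authors' deposited table. The remaining 6 did not pass that threshold. Of all genes 2.54% passed it, 0.966% higher and 1.57% lower in condition A. Among genes averaging 100 or more normalised reads, as all 10 do, the share was 6.27%, with 2.21% higher and 4.06% lower. The members were named with earlier results of these data known, so their share of calls is a description. The median log2 ratio of the 10 was -0.18, and that of 13565 genes averaging 50 or more was -0.00243. Leaving signs aside, the median log2 difference was 0.38 for the 10 and 0.16 for those genes.

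Reads of each library could be recovered from the deposited means, with 3 libraries per condition, numbered within a condition by falling size factor. Normalised reads are counts divided by these factors, which were 1.21, 1.03 and 0.768 in condition A and 1.09, 1.05 and 0.951 in condition B. The recovered genes held 27848814 to 42704482 reads per library in condition A and 33874089 to 39953410 in condition B. PRDM11 held 268, 272 and 323 normalised reads in condition A, against 565, 516 and 545 in condition B. No label says that the samples came from separate cultures, and the p-values cover only how far these samples scatter, which can be technical. Library 3 of condition A and library 1 of condition B stood apart along the GC content of the transcript. Against its fellows, library 3 of condition A had a median log2 ratio of -0.18 for transcripts under 45% GC and 0.19 for those of at least 55%. Library 1 of condition B had medians of -0.13 and 0.18 in the same classes. The other libraries were not flat either, when each was set against the gene's mean over all 6. The median of the high class less that of the low class was then -0.15, 0.038 and 0.31 in libraries 1 to 3 of condition A. In condition B it was 0.14, -0.16 and -0.18. B cell markers were abundant, and in the authors' deposited table MS4A1 (CD20) held 84146 normalised reads in condition A, against 71390 in condition B. The 4 T cell markers with a value summed to 97.9 in condition A, against 111 in condition B, 2 NK cell markers to 38.5 against 38.0, 4 myeloid markers (LYZ at 0.926 against 1.31) to 66.2 against 53.7, and 3 stromal markers to 54.7 against 63.7. The 6 B cell markers were mixed, with 1 higher and 1 lower in condition A at an adjusted p under 0.05 by DESeq. Their log2 ratios were above 0 in 4 and below 0 in 2. CD79B, a chain of the B cell receptor, was higher, with a log2 ratio of 0.42 (adjusted p = 0.0226 by DESeq, authors' deposited table). The part of the marker differences in the results was not tested. In bulk RNA, fewer cells carrying a transcript and less of it per cell cannot be told apart.

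**Figure D1:**
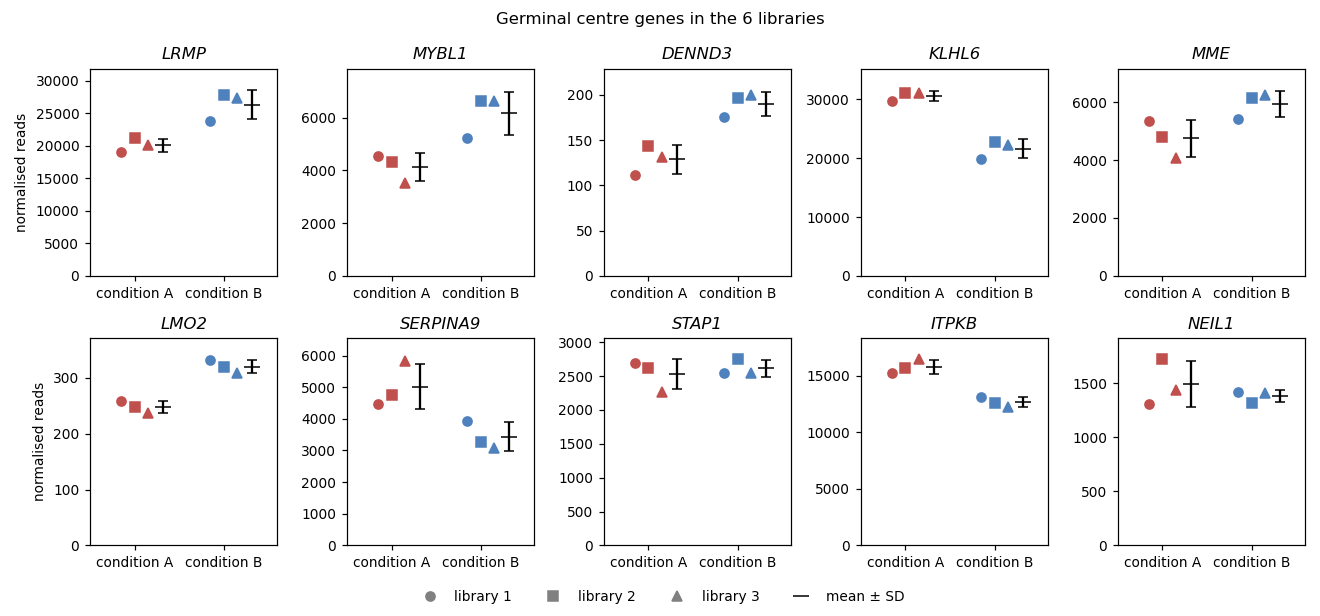
Normalised reads of each member in the 3 libraries of condition A (red) and the 3 of condition B (blue), with the mean and SD beside them and the axis from 0. KLHL6, SERPINA9 and ITPKB lie wholly above condition B, LRMP, MYBL1, DENND3, MME and LMO2 wholly below it, and STAP1 and NEIL1 overlap.

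MYBL1, also called A-MYB, is a transcription factor that is high in dividing germinal centre cells. It held 4542, 4333 and 3538 normalised reads in the libraries of condition A (SD 529.6, n = 3), against 5218, 6622 and 6642 in those of condition B (SD 817, n = 3). All of condition A lay below all of condition B, and the lowest library of each condition was the one that stood apart along GC content. Its transcript is 37.4% GC, the lowest of the 10. In the authors' deposited table the log2 ratio was -0.57 with an adjusted p of 0.0327 by DESeq, and the p implies a standard error of 0.17. After the trend with GC content was removed from each library, limma gave -0.45 with an adjusted p of 0.00075. The coding intervals of MYBL1 lie on chromosome 8 from 67476935 to 67525073, in 16 blocks (hg19, as all coding positions below).

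Its relatives gave other values. MYB, the founding member, was higher, at 2750 normalised reads in condition A, against 1778 in condition B (log2 ratio 0.63, adjusted p = 4.85e-05 by DESeq, authors' deposited table). Its libraries held 2500, 2792 and 2958 in condition A, against 1707, 1834 and 1793 in condition B, with no overlap. MYBL2 was not called, at 43544 normalised reads in condition A, against 35040 in condition B (adjusted p = 0.642 by DESeq, authors' deposited table). Of 7 genes of the MYB family and the MuvB core, MYB was the 1 called, and all 7 had a log2 ratio above 0.

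LMO2 is a LIM-only adaptor that bridges DNA-binding factors and marks germinal centre cells. Its values were 258, 248 and 237 normalised reads in the libraries of condition A (SD 10.6, n = 3), against 333, 319 and 309 in those of condition B (SD 11.8, n = 3). The ranges were apart, and the spread within each condition was small. In the authors' deposited table its log2 ratio of -0.37 missed the threshold (adjusted p = 0.256 by DESeq). On the recovered libraries, limma gave an adjusted p of 0.0444, and of 0.0651 when each library was centred on its median log2 value. LMO2 has coding intervals on chromosome 11 from 33880905 to 33891262, in 4 blocks. None of 13 LMO family and partner genes with a value was called. LYL1, a helix-loop-helix partner of LMO2, had 896 normalised reads in condition A, against 1275 in condition B (log2 ratio -0.51, adjusted p = 0.093 by DESeq, authors' deposited table). By limma LYL1 had an adjusted p of 0.0402.

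LRMP, or JAW1, is a membrane protein of the endoplasmic reticulum in lymphoid cells that binds inositol trisphosphate receptors, the channels that release calcium. It had 19133, 21147 and 20066 normalised reads in the libraries of condition A (SD 1008, n = 3), against 23772, 27791 and 27387 in those of condition B (SD 2213, n = 3). Condition A lay wholly below condition B, with 0.17 on the log2 scale between the nearest libraries. LRMP was lower by a log2 ratio of -0.39 (adjusted p = 0.0311 by DESeq, authors' deposited table), with 0.11 as the standard error the p implies. Per kilobase of its main transcript it was the most abundant of the 10, and by the mean of both conditions it ranked 194th among 16430 protein-coding genes. Its coding intervals are on chromosome 12 from 25222342 to 25260991, in 19 blocks. An antisense gene shares 2.04% of its exon bases, and since the strand setting is not given in the sources used here, reads there cannot be told apart.

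ITPKB phosphorylates inositol trisphosphate and so ends its action on those channels. The gene held 15236, 15666 and 16442 normalised reads in the libraries of condition A (SD 611, n = 3), against 13105, 12621 and 12238 in those of condition B (SD 434, n = 3). The lowest library of condition A was above the highest of condition B. Its log2 ratio of 0.32 was not called in the authors' deposited table (adjusted p = 0.156 by DESeq), and limma gave an adjusted p of 0.0236. ITPKB has coding intervals on chromosome 1 from 226822375 to 226925159, in 7 blocks.

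Of 22 other genes of inositol phosphate and calcium release, 3 were lower in condition A and 0 higher. ITPR3, one of the trisphosphate receptors, had 3504 normalised reads in condition A, against 5257 in condition B (log2 ratio -0.59, adjusted p = 7.85e-05 by DESeq, authors' deposited table). ORAI3, a plasma membrane calcium channel, held 109.7 normalised reads in condition A, against 201 in condition B (log2 ratio -0.88, adjusted p = 4.19e-05 by DESeq, authors' deposited table). INPP5A, a phosphatase of inositol trisphosphate, stood at 656 normalised reads in condition A, against 892 in condition B (log2 ratio -0.44, adjusted p = 0.0283 by DESeq, authors' deposited table). The libraries of ITPR3 were 3325, 3642 and 3544 in condition A, against 4902, 5451 and 5419 in condition B, without overlap. ITPR1 and ITPR2 were not called, with log2 ratios of -0.25 and 0.24, nor was the calcium pump ATP2A3 at 0.37 (authors' deposited table). Over the 19 genes of this list averaging 50 or more, the median log2 ratio was -0.0220.

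KLHL6 is a BTB and kelch protein that brings substrates to the ubiquitin ligase CUL3, and it is needed for germinal centres in mice. It had the smallest p of the 10. KLHL6 held 29662, 31068 and 31142 normalised reads in the libraries of condition A (SD 834, n = 3), against 19808, 22834 and 22195 in those of condition B (SD 1595, n = 3). The gap between the nearest libraries was 0.38 on the log2 scale, the widest of the 10. KLHL6 was higher by a log2 ratio of 0.50 (adjusted p = 0.00125 by DESeq, authors' deposited table), with 0.11 as the implied standard error. It has coding intervals on chromosome 3 from 183209718 to 183273441, in 7 blocks. Among 27 genes of the KLHL family with CUL3, RBX1, RC3H1 and RC3H2, 1 was lower and 0 higher in condition A. That gene was KLHL14, at 402 normalised reads in condition A, against 565 in condition B (log2 ratio -0.49, adjusted p = 0.0178 by DESeq, authors' deposited table). CUL3 itself had 8043 normalised reads in condition A, against 9594 in condition B (adjusted p = 0.469 by DESeq, authors' deposited table).

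DENND3 activates the small GTPase RAB12, which acts in membrane traffic and autophagy. The least abundant member, it had 112, 143 and 131 normalised reads in the libraries of condition A (SD 16.0, n = 3), against 175, 196 and 199.9 in those of condition B (SD 13.4, n = 3). These values rest on 101 to 147 reads per library in condition A and 190 to 206 in condition B. The ranges were apart, and DENND3 was lower by a log2 ratio of -0.56 (adjusted p = 0.0399 by DESeq, authors' deposited table), the implied standard error being 0.17. Coding intervals of DENND3 lie on chromosome 8 from 142138807 to 142204329, in 25 blocks. None of 16 genes of the DENN family, RAB12 and ULK1 was called. RAB12 had 528 normalised reads in condition A, against 459 in condition B (adjusted p = 0.724 by DESeq, authors' deposited table).

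MME, the surface peptidase CD10, is used to stain germinal centre cells. There were 5361, 4809 and 4082 normalised reads in the libraries of condition A (SD 641, n = 3), against 5407, 6153 and 6248 in those of condition B (SD 460.5, n = 3). The highest library of condition A and the lowest of condition B differed by 0.0124 on the log2 scale, so the ranges barely parted. The log2 ratio of -0.32 was not called (adjusted p = 0.316 by DESeq, authors' deposited table). Its transcript is 38.9% GC, and library 3 of condition A had a log2 ratio of -0.32 to its fellows. Of 8 other surface metallopeptidases with a value, none was called. ECE1, a related endopeptidase, had 22130 normalised reads in condition A, against 17000 in condition B (adjusted p = 0.0667 by DESeq, authors' deposited table). MME has coding intervals on chromosome 3 from 154801957 to 154898245, in 23 blocks. An antisense gene, with 0.276 normalised reads in condition A, against 2.32 in condition B, shares 2.22% of the exon bases of MME.

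SERPINA9, or centerin, is a serine protease inhibitor made by germinal centre B cells, and the gene with the octamer repeat printed above. It held 4460, 4757 and 5817 normalised reads in the libraries of condition A (SD 714, n = 3), against 3944, 3284 and 3066 in those of condition B (SD 457, n = 3). The groups were apart, yet the spread within them was the widest of the 10, with coefficients of variation of 14.2% in condition A and 13.3% in condition B. Its log2 ratio of 0.55 was not called (adjusted p = 0.0834 by DESeq, authors' deposited table). Adjusted over genes averaging 10 or more alone, its DESeq p from the authors' deposited table came to 0.0428. The libraries that stood apart along GC content were the highest of their condition, by 0.34 in condition A and 0.31 in condition B on the log2 scale. With a transcript of 49.97% GC, SERPINA9 lies above the trend of all genes in both. Other SERPINA genes were scarce, since 5 of the 7 with a value had means under 10 normalised reads. SERPINA9 has coding intervals on chromosome 14 from 94929433 to 94942509, in 5 blocks. An antisense gene, with 13.0 normalised reads in condition A, against 11.9 in condition B, shares 4.10% of the exon bases of SERPINA9.

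STAP1 is an adaptor that docks to TEC family kinases below the B cell receptor. It had 2697, 2627 and 2272 normalised reads in the libraries of condition A (SD 228, n = 3), against 2543, 2760 and 2545 in those of condition B (SD 124, n = 3). The groups overlapped, and the log2 ratio was -0.0470 with an adjusted p of 1 by DESeq (authors' deposited table) and an implied standard error of 0.19. None of 6 genes of STAP2 and the TEC kinases was called, BTK having 6435 normalised reads in condition A, against 7219 in condition B (adjusted p = 0.847 by DESeq, authors' deposited table). STAP1 has coding intervals on chromosome 4 from 68424528 to 68472072, in 9 blocks.

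NEIL1 is a DNA glycosylase that starts the repair of oxidised bases. It had 1313, 1723 and 1443 normalised reads in the libraries of condition A (SD 209, n = 3), against 1423, 1316 and 1409 in those of condition B (SD 58.1, n = 3). The ranges overlapped, with the highest and the lowest library both in condition A. In the authors' deposited table the log2 ratio was 0.11 with an adjusted p of 1 by DESeq, and the implied standard error is 0.13. MAN2C1 on the other strand shares 26.4% of the exon bases of NEIL1, so its value is less certain than the others. None of 19 other base excision repair genes was called, and FEN1 had the smallest p (log2 ratio 0.23, adjusted p = 0.488 by DESeq, authors' deposited table). NEIL1 has coding intervals on chromosome 15 from 75641247 to 75647372, in 11 blocks.

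Without a test, 8 of the 10 members had the 3 libraries of condition A wholly on one side of those of condition B, 3 of them higher and 5 lower. Of 13409 genes averaging 50 or more, with all libraries recovered, 34.9% did so. Per kilobase of transcript, the order by the mean of both conditions in normalised reads was LRMP (9272), KLHL6 (4147), SERPINA9 (2405), ITPKB (2307), STAP1 (1704), MYBL1 (992), MME (950.5), NEIL1 (383), LMO2 (168) and DENND3 (29.3). SERPINA9 and ITPKB, and MYBL1 and MME, are neighbours in this order that differed by less than the larger of their SDs in either condition. LRMP and KLHL6 lay closer in condition A, with 8033 and 4862 per kilobase, than in condition B, with 10510 and 3432.

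**Figure D2:**
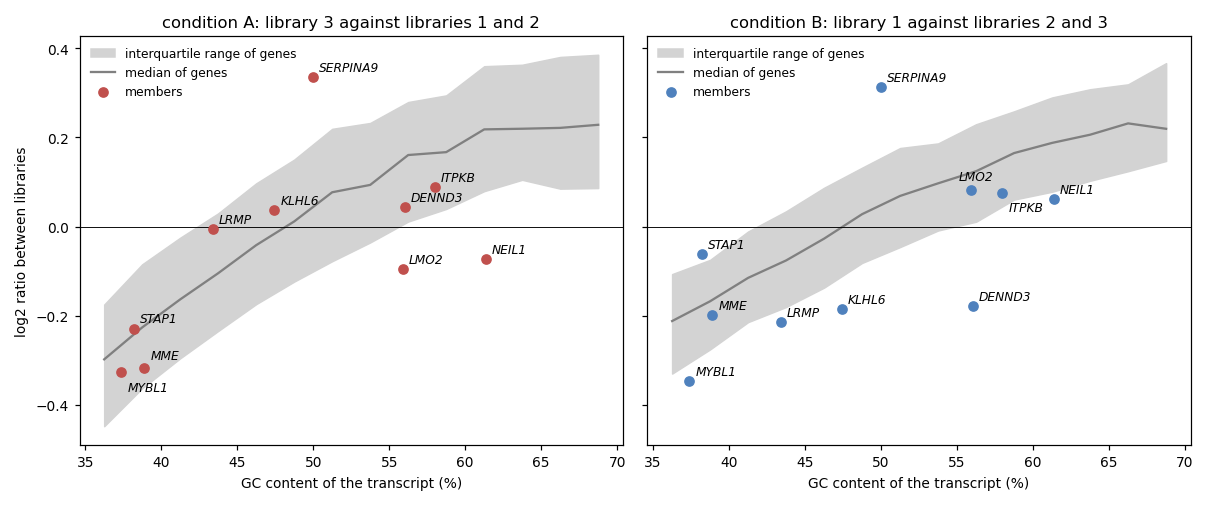
Log2 ratio of library 3 to libraries 1 and 2 in condition A (left) and of library 1 to libraries 2 and 3 in condition B (right), against the GC content of the transcript, for the 10 members (points) over the median and interquartile range of all genes averaging 50 or more (grey). The grey line climbs with GC content in both panels, and SERPINA9 lies above it in both, at 0.34 and 0.31.

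The recovered libraries also let the calls be repeated with limma on log2(normalised reads + 1). It called 7 of the 10, 3 higher and 4 lower in condition A, where 9.27% of all genes tested were called (9.3% with a pseudocount of 5). SERPINA9, ITPKB and LMO2 joined the 4 genes called by DESeq, and MME, STAP1 and NEIL1 did not pass (limma adjusted p = 0.0834, 0.75 and 0.56). With each library centred on its median log2 value over genes averaging 50 or more, limma called 6, without LMO2. That centring moved LMO2 from a log2 ratio of -0.37 to -0.32. Subtracting the median log2 ratio of genes, -0.00243, from the deposited ratio of LMO2 left it at -0.37. The count was 6 without library 3 of condition A and 6 without library 1 of condition B, the libraries that stood apart. It was 8 without library 1 of condition A, and KLHL6 was the 1 gene called without library 2 of condition A, library 2 of condition B or library 3 of condition B. For the centred fit and those without a library, the share of all genes called is not given. Those counts therefore cannot be set against it. With the GC trend removed, an alternative chosen after seeing the data, limma called 8 of the 10, where 20.6% of all genes tested were called. MME was then called too, with a log2 ratio of -0.23 and a limma adjusted p of 0.0139. Beyond this correction, the part of the GC trend in the differences was not tested.

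**Figure D3:**
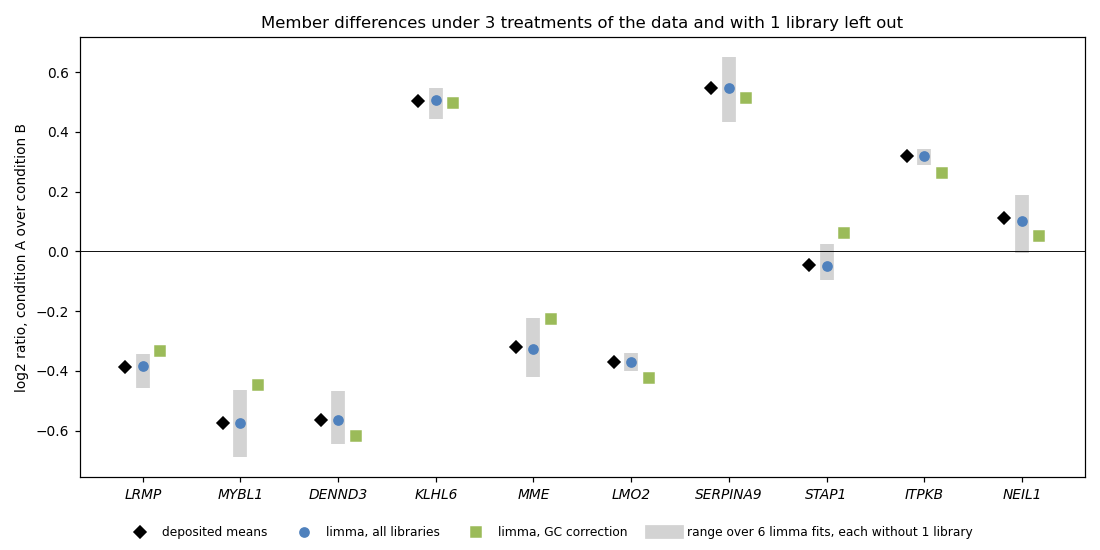
Log2 ratio of condition A over condition B for each member from the deposited means (diamonds), from limma on all libraries (circles) and from limma after GC correction (squares), with the range over 6 limma fits that each leave out 1 library (grey bars). The 8 members whose libraries do not overlap keep their sign in all of these, while the values of STAP1 and NEIL1 reach both sides of 0.

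Other germinal centre genes were considered next. Of 19 with a value, 2 were higher and 1 lower in condition A at an adjusted p under 0.05 by DESeq (authors' deposited table). MEF2C and BACH2, transcription factors of B cells, were higher, with log2 ratios of 0.49 and 0.42 by the authors' deposited table (adjusted p = 0.0026 and 0.0486 by DESeq). RGS13 and BCL11A were not called, at -0.48 and 0.29 on the log2 scale (authors' deposited table). POU2AF1, the coactivator of octamer-binding factors, was not called either, at 59390 normalised reads in condition A, against 40492 in condition B (adjusted p = 0.229 by DESeq, authors' deposited table). Over the 18 averaging 50 or more, the median was 0.14.

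Genes of the activated B cell-like class gave 4 higher and 0 lower in condition A among 23. They were PIM1, a kinase, and the transcription factors ETV6, FOXP1 and IRF4. Their log2 ratios were 0.71, 0.52, 0.43 and 0.41 in the authors' deposited table (adjusted p = 3.74e-07, 0.00351, 0.0229 and 0.0276 by DESeq). IRF4 had 29044 normalised reads in condition A, against 21794 in condition B, from the authors' deposited table. Of the 22 with a mean of at least 50, 18 had a log2 ratio above 0, with a median of 0.17, where 49.6% of all genes of that level did. Among the members, 4 of 10 did, and among the other germinal centre genes 12 of 18, with a median of 0.14. These lists were chosen with earlier results of these data known, so the counts are a description without a test. PRDM1, a regulator of plasma cells, was the 1 of 5 plasma cell markers called, at 805 normalised reads in condition A, against 460.2 in condition B (log2 ratio 0.81, adjusted p = 1.12e-06 by DESeq, authors' deposited table). The other plasma cell markers did not pass and were mixed, with log2 ratios of -0.34 for MZB1, -0.51 for SDC1, -0.0236 for XBP1 and 0.25 for IGJ (authors' deposited table). MZB1 and SDC1 were lower in condition A by limma (adjusted p = 0.0415 and 0.0493), and the median log2 ratio of the 5 was -0.0236. None of 5 reference genes of a cell-of-origin assay was called, with log2 ratios from -0.19 for UBXN4 to 0.37 for R3HDM1 (authors' deposited table). By limma R3HDM1 was higher in condition A (adjusted p = 0.0304), and the other reference genes did not pass.

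**Figure D4:**
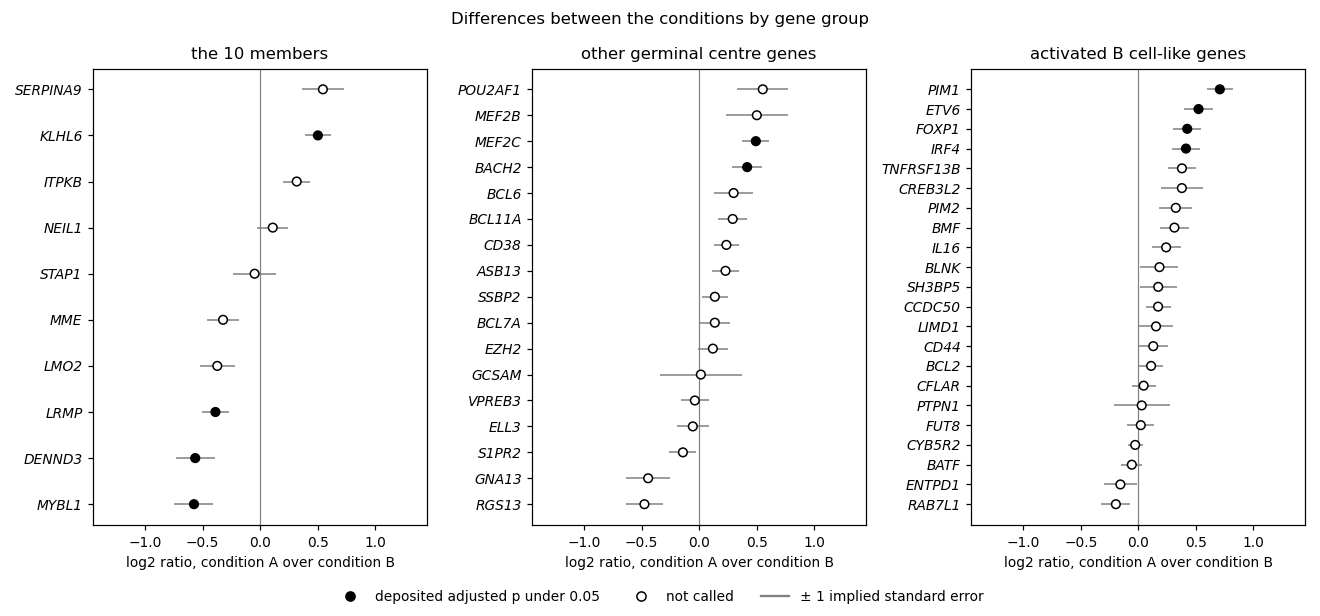
Log2 ratio of condition A over condition B with 1 implied standard error for the members, other germinal centre genes and activated B cell-like genes with a mean of at least 50, filled where the adjusted p by DESeq is under 0.05 in the authors' deposited table. The members run from -0.57 for MYBL1 to 0.55 for SERPINA9, and the 4 filled points of the right panel all lie above 0. The lower called gene of the other germinal centre genes is not reported here and not drawn.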

How the data were processed

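RNA of U2932 cells carrying a PRDM11 hairpin (3 samples) or a scrambled one (3 samples) was sequenced. The authors' tools were STAR, HTSeq 0.5.4p5 and DESeq 1.14.0, with genome build hg19, per the submitters' processing notes, which give no roles. What the authors deposited is 1 table of conditions A and B, in which mean normalised reads are a signal made from counts and size factors. The deposited fold column is a ratio with condition B on top, and the deposited log2 column is its logarithm, so signs are turned in the text. The deposited adjusted p-value equals a Benjamini-Hochberg adjustment over all 34675 genes. From the deposited hg19 track only the coding intervals were used, not its score. No column held values per sample (0 left out).

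The planned test was the deposited adjusted p under 0.05. Implied standard errors are the log2 ratio over the normal deviate of the deposited p-value. Each condition mean up to 32000, printed to 15 digits, was searched for 3 whole read numbers that give it exactly. In condition A 34149 of 34551 means had 1 solution, 370 more (KLHL6 and LRMP among them) were settled by the printed ratio, and 32 were left out. In condition B all 34574 had 1. The recovered share of all normalised reads was 81.3% for condition A, against 86.1% for condition B. On simulated means 604 of 634 were recovered for condition A and 628 of 628 for condition B, with 0 wrong. Among the highest of these means 32 of 60 were recovered for condition A and 64 of 64 for condition B, again with 0 wrong. No simulated count is given for means settled by the printed ratio. The simulation therefore does not cover the condition A libraries of KLHL6 and LRMP. The libraries carry no label's replicate number.

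Alternatives used limma 3.58.1 in R 4.3.3 on genes averaging 10 or more, first tested on simulated data, with pseudocounts of 1 and 5, median centring, each library left out, and a lowess on transcript GC content removed (span 0.3). Length and GC content are those of the main GENCODE 29 transcript. Named are all 10 members, PRDM11, called genes of each list, up to 3 more of each with the smallest p and the most abundant markers; ITPR1 and XBP1 were added after their values were seen. Of the genes this rule names, 2 are not reported here; they remain in the counts and medians of their lists. The members and lists were chosen with earlier results of these data known.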

Additional observations from a re-analysis of the deposited data

How the results depend on the processing

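Of the 10 members, 4 were called at the deposited adjusted p under 0.05 by DESeq, and 1 (KLHL6) at 0.01. At 0.1, and with only genes averaging 10 or 50 or more adjusted, 5 were called, SERPINA9 being added. With limma 7 were called at either pseudocount, and 6 when each library was centred on its median (LMO2 was lost, limma adjusted p = 0.0651). After GC correction, which was chosen after seeing the data, limma called 8. Leaving out each library in turn gave 1 to 8 members called. Other germinal centre genes gave 3 calls, 5 with limma centred on library medians, 9 after GC correction and 2 to 8 with a library left out. Activated B cell-like genes gave 4 calls, 9 after GC correction and 1 to 7 with a library left out. The limma counts are over fewer genes, those averaging 10 or more with all libraries recovered. They cover 18 of 19 other germinal centre genes, 20 of 23 activated B cell-like genes and 106 of 130 partner and family genes. After GC correction 105 of the last were covered. IRF4, called by DESeq, had no recovered libraries in condition A and was not in the limma fits. Of 130 partner and family genes with a value 5 were called, where 2.54% of all genes were. Among genes averaging 100 or more that share was 6.27%. The list gave 10 calls at a threshold of 0.1, and with only genes of a mean of at least 10 or 50 adjusted. Partner and family genes gave 10 too with limma at either pseudocount or centred. They gave 26 after GC correction and 2 to 15 with a library left out. The lowest counts came without library 2 of condition A or libraries 2 or 3 of condition B. The highest came without library 1 of condition A, and the cause was not tested. Shares of all genes called are given only for the deposited 0.05 threshold, for limma at either pseudocount and after GC correction. The other counts here cannot be set against such a share. Signs turned for STAP1, at a log2 ratio of 0.062 after GC correction and -0.097 to 0.026 with a library left out, and for NEIL1, at -0.0057 to 0.19 with a library left out. The other 8 members kept their sign in every alternative run. No paired analysis was possible because the recovered libraries carry no replicate number. DENND3, with 101 to 206 reads per library, is the member whose precision depth limits most.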
